A study of Mus musculus with 20 samples.

Results

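Long noncoding RNAs (lncRNAs) are transcripts without a known protein product, and many of those in mouse annotations have only a clone name and no described role. The 10 lncRNA genes described here are RP24-378G4.3, Gm26883, Gm26880, Ptgs2os2, RP23-442M18.1, RP23-381B19.2, 2010300F17Rik, RP24-286J21.7, RP24-67N17.2 and RP23-68M8.2. They were chosen by name out of 54986 genes in the table, 9585 of which are of a long noncoding type, because an earlier look at the same values had singled them out along an epithelial–mesenchymal transition (EMT) and metastasis series. Their levels in those lines and after TGFβ, an EMT treatment, are therefore given as a description, with no test. All 10 passed the limit on low values set for the tests, 1 CPM (the share of a library's reads that fall on a gene, scaled to a fixed library size) in at least 2 of the 20 libraries, and a gene that passes in only the group where it is high had to differ.

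The samples were 10 conditions of mouse cells with 2 libraries each. NMuMG is an epithelial line from normal mouse mammary gland, and in E1KD it carries an shRNA against hnRNP E1, the RNA-binding protein encoded by Pcbp1. M1P is the line from a primary tumor of E1KD cells grown in the mammary fat pad of immunodeficient mice, and L1P is the line from lung metastases, so both carry the same shRNA. TGFβ-treated NMuMG, the cytokine treatment that drives EMT in this line, completed a first set of 10 libraries. A second set held NMuMG with an empty vector (EV), the NMuMG clones 12 and 16 that overexpress the lncRNA Platr18, and E1KD cells with a scrambled shRNA (SCR) or an shRNA against Platr18 (Platr18 KD), the last pair being E1KD cells throughout. Each overexpression line is 1 clone, and nothing in the labels says that the 2 libraries of a condition came from separate cultures, so the spread between them may be technical. M1P, L1P, SCR and Platr18 KD are all E1KD cells, and nothing in the labels says that hnRNP E1 was silenced more than once. An effect of the silencing and a trait of 1 silenced line therefore cannot be told apart, also where both sets show the same difference.

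The 2 sets were not alike as libraries. The mitochondrial ribosomal RNA gene mt-Rnr2 had 333 to 492 CPM in the first set and 113874 to 165149 CPM in the second, and the libraries were scaled to 50.8 to 60.03 and 63.0 to 147 M reads. Comparisons were therefore made within a set, with limma on log2(CPM + 1) over 17106 genes. A gene is named as called, or as having risen or fallen, at an unadjusted p under 0.001 and a log2 fold change of 1 or more either way, and adjusted p-values are Benjamini-Hochberg values over all these genes. Pcbp1 fell with hnRNP E1 silencing in both sets, from 287 and 312 CPM in NMuMG to 16.6 and 14.21 CPM in E1KD, and from 32.3 CPM in both EV libraries to 3.28 and 3.46 CPM in SCR. Platr18 had 813 to 3096 CPM in the overexpressing clones against 3.06 and 3.68 CPM in EV, and 0.136 and 0.170 CPM in Platr18 KD against 2.92 and 3.10 CPM in SCR. Platr18 was thus no higher in SCR than in EV, while it had 17.9 and 14.6 CPM in E1KD against 1.24 and 1.45 CPM in NMuMG. The 8 epithelial markers looked at summed to 2935 and 2988 CPM in NMuMG, although Epcam and Esrp1 were listed at 0 there, and to 2831 and 3970 CPM in E1KD. Of 5 tested epithelial markers 0 were called in E1KD, 1, Krt19, fell after TGFβ and 0 were called in SCR against EV (3, 4 and 4 at an unadjusted p under 0.05, limma). Of 7 tested mesenchymal markers 6 rose in E1KD, 5 after TGFβ and 1, Fn1, in SCR against EV, where 12.1%, 16.1% and 8.0% of protein-coding genes were called. From E1KD to M1P the epithelial Cdh1 and Ocln and the mesenchymal Fn1 fell, where 4.64% of protein-coding genes were called. Fn1 rose from M1P to L1P (1.55%) and with Platr18 overexpression (1.98%), and fell with Platr18 silencing (2.02%). Summed markers of leukocytes did not exceed 3.48 CPM in any library, those of endothelium 0.541, of lung epithelium 0.0394 and of adipocytes 0.0977. In bulk RNA, fewer cells with a transcript and less of it per cell cannot be told apart.

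lncRNAs differ by position. Some lie alone between protein-coding genes, while others lie on the opposite strand of a gene and overlap its exons, and such antisense RNAs can only be measured where the strand of a read is kept. Whether strand was used in the counting is not given in the sources used here. A further kind of gene carries stretches repeated elsewhere in the genome, and reads from these can be shared among the copies. The 10 lncRNAs included all of these, and some genes are of more than one kind. Those with little or no exon overlap come first. Gm26883 and RP24-67N17.2, which overlap a protein-coding gene of the other strand and follow its level in the first set only, come next. Those with copies elsewhere come last.

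Ptgs2os2 (ENSMUSG00000097754.1, chr1:150159043-150164948, minus strand, GRCm38) is known as lincRNA-Cox2, a regulator of immune genes studied mainly in macrophages. Its 2 exons lie 50.8 kb from Ptgs2, which encodes the prostaglandin synthase COX-2, on the opposite strand. RP23-442M18.1 (ENSMUSG00000074415.13, chr9:41327260-41655483, plus strand) is listed by RefSeq as Mir100hg and is the host transcript of miR-100, let-7a-2 and miR-125b-1, small RNAs that repress target messages by pairing through their seed. The 5p arms below are shown because the gene is best known for them, with the seed, bases 2 to 8, in capitals. The 3p arms are not printed. The sequences are from RefSeq (GRCm38.p6), where let-7a-5p is listed under another locus and was placed here by its exact match in the let-7a-2 hairpin, and the 3 seeds differ from one another.
mmu-miR-100-5p, chr9:41531437-41531458: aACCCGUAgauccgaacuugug
mmu-let-7a-5p, chr9:41536732-41536753: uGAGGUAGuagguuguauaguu
mmu-miR-125b-5p, chr9:41581940-41581961: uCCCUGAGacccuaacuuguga
The table has rows for the 3 precursor genes, and all were listed at 0 in every library, so only the host transcript is described.

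RefSeq promoter windows, 250 bases before to 50 after the start, were found for 4 of the 10 genes, 5 windows in all because Mir100hg has 2 starts. They were searched on both strands for the E-box CAGGTG, the motif bound by the EMT factors of the Snail and Zeb families, and for the AP-1 motif TGANTCA. The E-box was present in 2 of the 5 windows and in 20.2% of 32851 mouse promoter windows of the same length, and AP-1 in 0 of 5 and 7.81%. The 2 windows with an E-box, in capitals and read on the other strand in the second, were those of Ptgs2os2 and RP24-378G4.3 and are given here to show the motif in place. With hnRNP E1 silencing Ptgs2os2 was lower and RP24-378G4.3 higher in both sets of libraries. The 2 matched genes without an E-box, RP23-442M18.1 and RP23-68M8.2, were lower and higher in both sets, the latter by only 0.65 in the second.
Ptgs2os2, chr1:150164899-150165198, minus strand: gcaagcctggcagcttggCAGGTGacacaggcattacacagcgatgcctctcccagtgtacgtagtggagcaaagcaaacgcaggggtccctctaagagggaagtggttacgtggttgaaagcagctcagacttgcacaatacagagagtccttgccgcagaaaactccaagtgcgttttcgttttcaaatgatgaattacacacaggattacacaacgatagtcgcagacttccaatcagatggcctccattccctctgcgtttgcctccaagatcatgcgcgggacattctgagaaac
RP24-378G4.3, chr14:54297439-54297738, minus strand: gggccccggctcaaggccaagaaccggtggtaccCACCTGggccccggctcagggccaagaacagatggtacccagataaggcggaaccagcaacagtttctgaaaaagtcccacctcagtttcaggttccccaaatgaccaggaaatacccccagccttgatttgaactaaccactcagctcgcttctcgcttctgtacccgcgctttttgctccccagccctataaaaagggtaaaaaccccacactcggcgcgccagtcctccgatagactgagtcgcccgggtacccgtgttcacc
The E-box started 232 bases before the start of Ptgs2os2 and 216 bases before that of RP24-378G4.3. A match says only that the letters are there.

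Ptgs2os2 had 3.45 and 3.43 CPM in NMuMG and 0.0591 and 0.0739 CPM in E1KD. It had 0.419 and 0.461 CPM in M1P and was listed at 0 in both L1P libraries. After TGFβ it had 3.42 and 3.73 CPM. The lncRNA was thus near the value of 3 reads (0.04998 to 0.0591 CPM in these libraries) in E1KD and L1P, while TGFβ-treated and untreated NMuMG overlapped, with a log2 difference of 0.04 (SE 0.0521).

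Among the vector and shRNA lines, Ptgs2os2 had 4.78 and 4.72 CPM in EV and 0.0947 and 0.0953 CPM in SCR. Platr18 KD libraries had 0.0611 and 0.0409 CPM. The low level of E1KD cells was thus seen again in another set of libraries, which is not known to hold a separate silencing. Platr18 silencing went with no called change, but a fall from the SCR level could not have reached the limit of 1. The log2 difference between SCR and EV was -2.39 and is given without a test, since this gene was among the first 5 lncRNAs there.

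For Ptgs2os2 the Platr18 clones lay on both sides of EV. Clone 12 had 0.0297 and 0 CPM, at or below the value of 3 reads, and clone 16 had 8.28 and 8.57 CPM, above both EV libraries. A mean over both clones hides this, and its log2 fold change of -0.89 (SE 0.0451, adjusted p = 3.8e-09) was under the limit of 1.

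**Figure D1:**
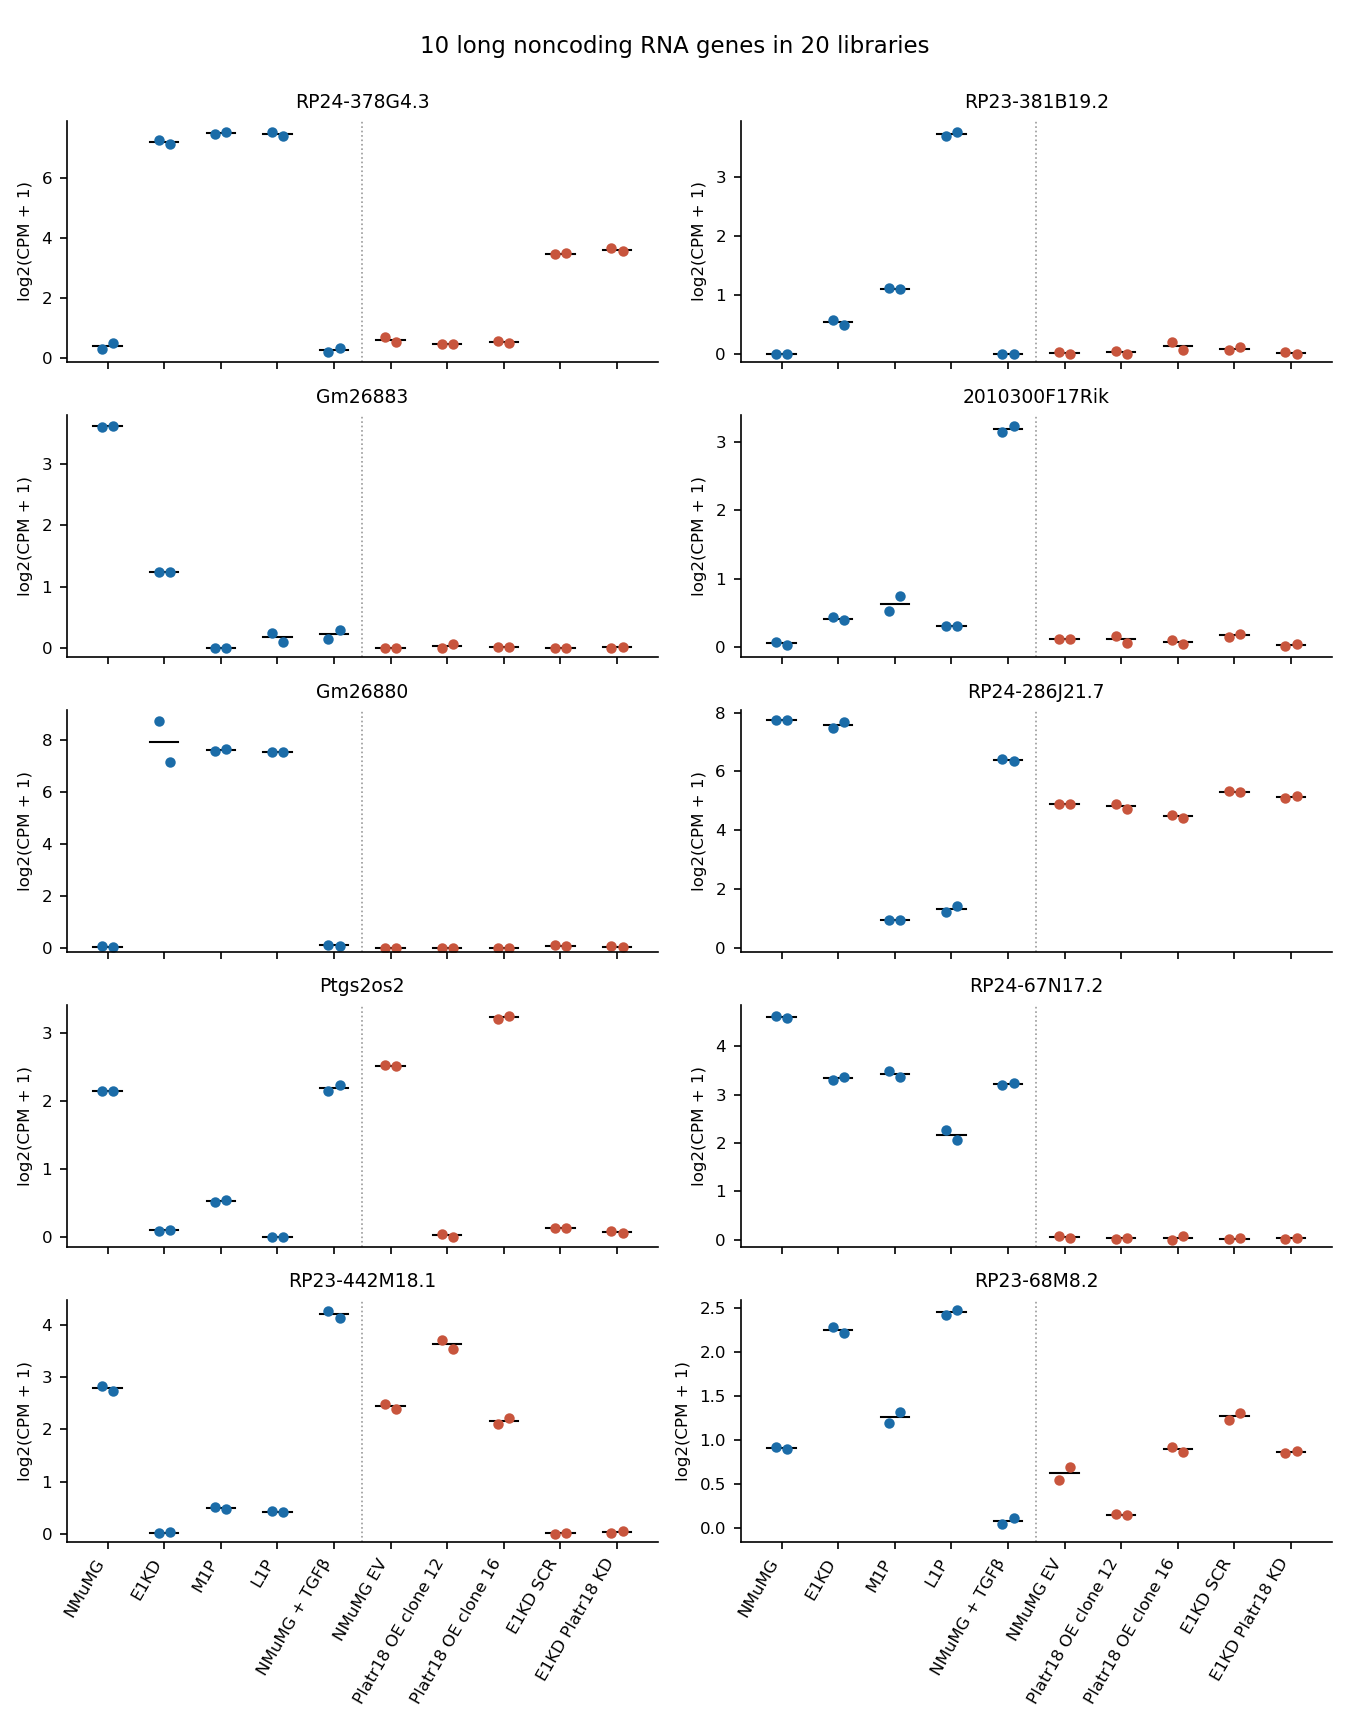
Level of each of the 10 lncRNA genes as log2(CPM + 1) in every library. Points are the 2 libraries of a condition and bars their means, blue for the set of lines and TGFβ, orange for the set of vector, clones and shRNAs, with a dotted line between the sets. Gm26883, Gm26880 and RP24-67N17.2 stay near 0 throughout the second set.

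The neighbour Ptgs2 did not share this pattern. NMuMG had 5.03 and 4.85 CPM of it, E1KD 73.3 and 55.3 CPM, M1P 28.4 and 27.6 CPM, both L1P libraries 36.9 CPM and TGFβ-treated cells 88.2 and 93.9 CPM. It rose in E1KD by a log2 fold change of 3.45 (SE 0.121, adjusted p = 1.0e-11) and after TGFβ by 3.95 (SE 0.121, adjusted p = 2.0e-12), both against the same NMuMG libraries. Ptgs2os2 was low in the first of these conditions and level in the second.

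Of the same libraries, Ptgs2 had 14.0 and 18.7 CPM in EV and 45.3 and 46.3 CPM in SCR, a rise of 1.44 (SE 0.121, adjusted p = 2.7e-07). It rose in both clones, by 1.49 in clone 12 (SE 0.121, adjusted p = 3.2e-07) and by 1.98 in clone 16 (SE 0.121, adjusted p = 3.7e-08), where Ptgs2os2 was near 0 and at its highest. It fell from E1KD to M1P by 1.16 on the log2 scale (SE 0.121, adjusted p = 4.5e-06), but without E1KD replicate 1 by 0.96, which is under the limit. That library differed from its replicate: its values summed to 0.729 M CPM, against 0.547 to 0.581 M in the other 9 of the set.

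**Figure D2:**
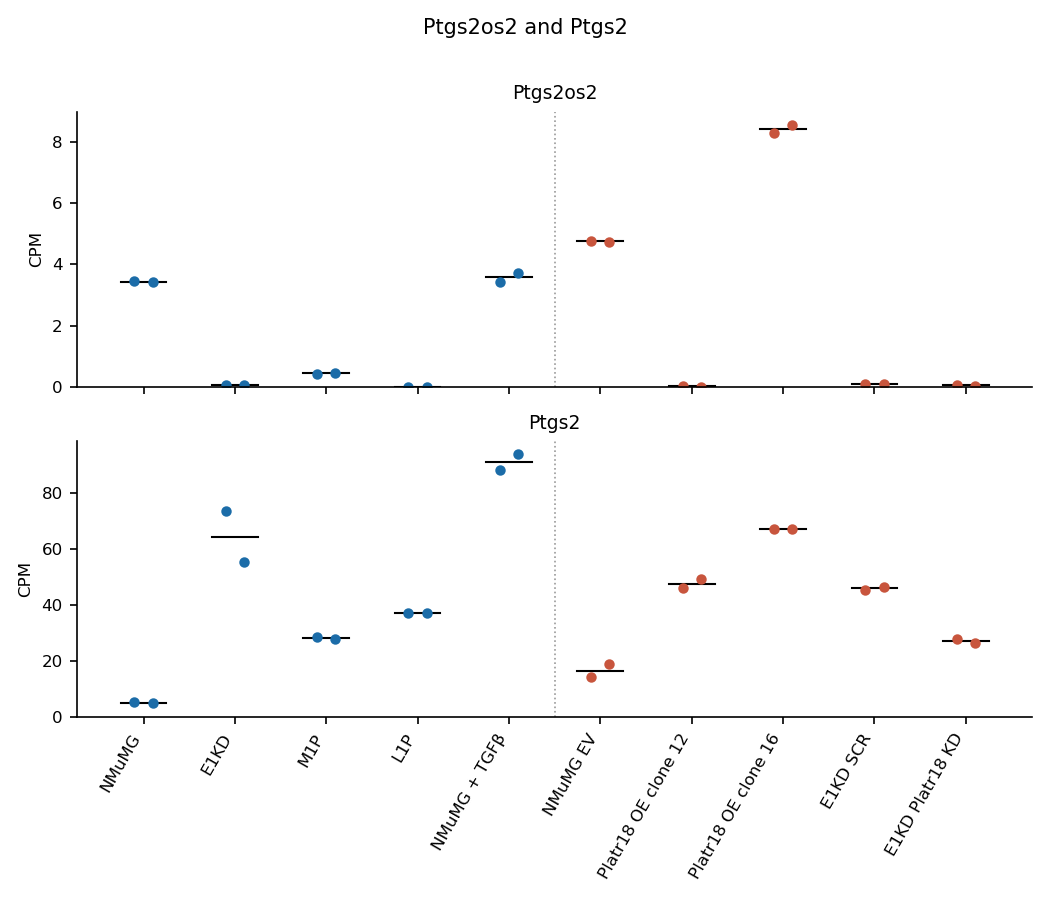
CPM of Ptgs2os2 (top) and Ptgs2 (bottom) in the 20 libraries, with points for libraries and bars for the means of 2. Clone 12 at 0.0297 and 0 CPM and clone 16 at 8.28 and 8.57 CPM of Ptgs2os2 both have more Ptgs2 than the EV libraries at 14.0 and 18.7 CPM.

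RP23-442M18.1, the Mir100hg gene, had 6.14 and 5.62 CPM in NMuMG and 0.00693 and 0.0185 CPM in E1KD, under the value of 1 read in the first library and about 1 read in the second. M1P had 0.431 and 0.390 CPM, L1P 0.353 and 0.330 CPM. After TGFβ it had 18.3 and 16.6 CPM, above every other library of the first set. The log2 difference from NMuMG was 1.42 after TGFβ, so this lncRNA was near absent with hnRNP E1 silencing and higher with TGFβ.

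The second set gave 4.61 and 4.25 CPM of RP23-442M18.1 in EV, and 0 and 0.0159 CPM in SCR. Platr18 KD libraries stayed at 0.00679 and 0.0341 CPM. Clone 12 had 12.2 and 10.6 CPM, a rise of 1.19 (SE 0.0774, adjusted p = 3.2e-08), and clone 16 had 3.28 and 3.63 CPM, just below EV. Its direction across clones was thus the reverse of that of Ptgs2os2. The one protein-coding gene of the table within 100 kb, CT025619.1, lies inside the host gene and was not tested, with at most 1.32 CPM.

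RP23-381B19.2 (ENSMUSG00000087107.8, chr11:83223576-83226604, plus strand) lies among the Schlafen genes, a family known from lymphocyte growth control and the interferon response. It was listed at 0 in both NMuMG and both TGFβ libraries. E1KD had 0.492 and 0.407 CPM, M1P 1.16 and 1.13 CPM and L1P 11.8 and 12.6 CPM. The 4 lines came in the order NMuMG, E1KD, M1P, L1P with no overlap between neighbours in that order, and the metastasis line was the one with the lncRNA well above 1 CPM. In the second set, which holds no metastasis line, it had at most 0.145 CPM.

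The pseudogene RP23-381B19.3 lies on the same strand over 16.2% of the exon bases of RP23-381B19.2. It went from 0.878 and 0.692 CPM in M1P to 6.88 and 7.26 CPM in L1P, given without a test since RP23-381B19.2 was chosen on this comparison. Reads of the shared bases cannot be told apart. Slfn4, the nearest protein-coding gene at 33.4 kb, had at most 0.478 CPM in any library and was not tested. The leukocyte markers summed to 1.86 and 2.12 CPM in L1P against 2.69 and 2.91 CPM in M1P, and the lung markers to 0 and 0.0194 CPM in L1P.

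2010300F17Rik (ENSMUSG00000097289.1, chr11:96712982-96747436, minus strand) was high in TGFβ-treated cells. It had 7.78 and 8.35 CPM there, against 0.0531 and 0.0189 CPM in NMuMG. The hnRNP E1 lines had 0.233 to 0.673 CPM, above NMuMG and under 1 CPM. Its log2 difference after TGFβ was 3.13, given without a test, and in the second set it had at most 0.143 CPM.

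The gene overlaps Skap1, an adaptor protein of T cells, on the opposite strand in 6.57% of its exon bases. Skap1 itself had 0.234 and 0.250 CPM after TGFβ and at most 0.0635 CPM elsewhere, so it was far below the lncRNA. None of the other protein-coding genes within 100 kb of 2010300F17Rik, Cbx1, Snx11 and Nfe2l1, was called in any comparison.

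RP23-68M8.2 (ENSMUSG00000113331.1, chr12:110151654-110158077, minus strand) lies near the Dlk1–Dio3 imprinted region, 121 kb from Dio3, and has no protein-coding gene within 100 kb. It had 0.903 and 0.867 CPM in NMuMG and 3.86 and 3.66 CPM in E1KD. M1P had 1.29 and 1.51 CPM and L1P 4.38 and 4.56 CPM, so the level went up, down and up again along the series with no overlap between neighbours. After TGFβ it had 0.0334 and 0.0833 CPM, with a log2 difference of -0.83, under the limit of 1 on the shifted scale.

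RP23-68M8.2 in the second set had 0.466 and 0.623 CPM in EV, 1.35 and 1.48 CPM in SCR and 0.808 and 0.845 CPM in Platr18 KD. The log2 differences were 0.65 for SCR against EV (SE 0.0654, adjusted p = 1.9e-06) and -0.40 for Platr18 KD against SCR (SE 0.0654, adjusted p = 5.4e-04). Neither reached the limit of 1, though the groups did not overlap. The clones were again apart, at 0.119 and 0.107 CPM in clone 12 and 0.901 and 0.824 CPM in clone 16. A nearby gene that the table lists under type TEC, RP23-68M8.6, had 1.24 and 1.45 CPM in NMuMG and 0 and 0.0167 CPM after TGFβ.

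Among the antisense genes, Gm26883 (ENSMUSG00000096972.7, chr2:169633646-169888503, minus strand) lies across Tshz2, a teashirt family transcription factor, and 99.2% of its 5115 exon bases are covered by Tshz2 exons of the other strand. NMuMG had 11.2 and 11.3 CPM, and both E1KD libraries had 1.37 CPM. It was listed at 0 in both M1P libraries, with 0.185 and 0.0746 CPM in L1P and 0.107 and 0.228 CPM after TGFβ. It did not, in the second set, exceed 0.0460 CPM, EV included.

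Tshz2 had 9.74 and 10.7 CPM in NMuMG, against 1.11 and 1.26 CPM in E1KD and at most 0.158 CPM in M1P, L1P and after TGFβ. In NMuMG and E1KD Gm26883 was thus at 105% to 123% of Tshz2. The log2 difference of Tshz2 was -2.36 in E1KD and -3.39 after TGFβ, given without a test because its reads in this set cannot be told apart from those of the chosen Gm26883.

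In the second set Tshz2 had 11.7 and 10.8 CPM in EV, close to NMuMG, while Gm26883 was listed at 0 in both EV libraries. Tshz2 fell in SCR to 2.91 and 2.87 CPM (log2 fold change -1.65, SE 0.0726, adjusted p = 1.9e-10) and over both clones by 1.25 (SE 0.0629, adjusted p = 3.8e-09), to 6.85 and 6.67 CPM in clone 12 and 2.55 and 2.29 CPM in clone 16. In the second set the gene on the plus strand was thus lower with hnRNP E1 silencing, while the one on the minus strand had at most 3 reads in any library. Without knowledge of the strand, reads of Gm26883 and Tshz2 in the first set cannot be told apart.

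RP24-67N17.2 (ENSMUSG00000114934.1, chr13:119698360-119704549, minus strand) overlaps Hmgcs1, a synthase of the cholesterol pathway, in 29.3% of its exon bases. NMuMG had 23.8 and 23.1 CPM, E1KD 8.90 and 9.30 CPM, M1P 10.2 and 9.29 CPM and L1P 3.79 and 3.20 CPM. After TGFβ it had 8.16 and 8.51 CPM, a log2 difference of -1.39. The second set had at most 0.0559 CPM.

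Hmgcs1 followed the same course at a higher level. NMuMG had 195 and 194 CPM, E1KD 109 and 81.2 CPM, M1P 98.2 and 95.1 CPM, L1P 38.9 and 39.1 CPM and TGFβ-treated cells 80.1 and 81.2 CPM. RP24-67N17.2 was at 8.15% to 12.2% of Hmgcs1 in all 10 libraries of the first set and at no more than 0.0324% in the second, where Hmgcs1 had 92.9 to 229 CPM. The log2 difference of Hmgcs1 was -1.29 from M1P to L1P, -1.26 after TGFβ and -1.04 in E1KD, the last being -0.83 without E1KD replicate 2. They are given without a test, since RP24-67N17.2, chosen on such values, follows Hmgcs1. Further along, Tmem267 at 87.3 kb fell after TGFβ by 1.58 (SE 0.0798, adjusted p = 4.4e-10).

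**Figure D3:**
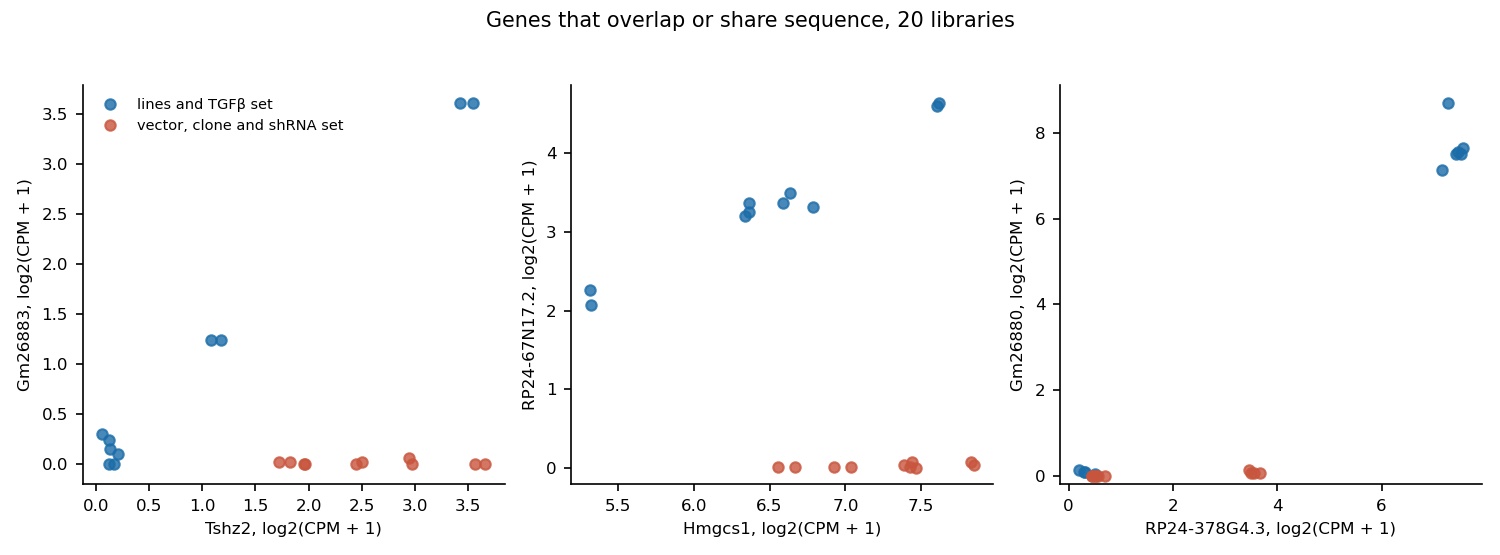
log2(CPM + 1) of 3 lncRNA genes against the gene they overlap or share sequence with, one point per library, blue for the set of lines and TGFβ and orange for the set of vector, clones and shRNAs. Gm26883 and RP24-67N17.2 rise with Tshz2 and Hmgcs1 in the first set and lie flat near 0 in the second, and Gm26880 is near 0 in the second set also where RP24-378G4.3 has 9.99 to 11.7 CPM.

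The last genes share sequence with others. RP24-378G4.3 (ENSMUSG00000105703.2, chr14:54292443-54297456, minus strand) was at 0.230 and 0.415 CPM in NMuMG. E1KD libraries had 154 and 142 CPM, those of M1P 176 and 187 CPM, and those of L1P 184 and 170.1 CPM. After TGFβ it had 0.150 and 0.250 CPM, overlapping NMuMG, with a log2 difference of -0.14 (SE 0.0918). The lncRNA was thus high in the cells with the hnRNP E1 shRNA and not after TGFβ.

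RP24-378G4.3 kept that pattern in the second set at a lower level. EV and both clones had 0.368 to 0.630 CPM, and SCR had 9.99 and 10.2 CPM. Platr18 KD had 11.7 and 10.8 CPM, a log2 difference from SCR of 0.14 (SE 0.0918, adjusted p = 0.350). Around it Abhd4, a lipase at 21.8 kb, rose from E1KD to M1P, from 20.8 and 16.1 CPM to 58.1 and 61.0 CPM (log2 fold change 1.65, SE 0.0910, adjusted p = 4.2e-09). Slc7a7, an amino acid transporter at 72.0 kb, fell in SCR against EV by 1.06 (SE 0.1001, adjusted p = 9.0e-07). Olfr49, an olfactory receptor gene and the nearest at 7.504 kb, had at most 0.105 CPM.

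Gm26880 (ENSMUSG00000096979.1, chr4:146509094-146511764, minus strand) lies within a cluster of zinc finger genes. It had 0.0531 and 0.0189 CPM in NMuMG and 414 and 139.8 CPM in E1KD, so the E1KD libraries differed by more than those of M1P or L1P. It had 188 and 201 CPM in M1P, 182 CPM in both L1P libraries and 0.1002 and 0.0666 CPM after TGFβ. In the second set, SCR and Platr18 KD included, it had at most 0.0947 CPM.

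Gm26880 and RP24-378G4.3 share sequence although they lie on different chromosomes. In their longest transcripts, 1021 of the 1318 bases of Gm26880 (77.5%) aligned to RP24-378G4.3 in opposite orientation, in stretches of 755 and 267 bases at 95.5% and 97.004% identity. A gap-free run of 150 bases from the longer stretch is given to show how close they are, with RP24-378G4.3 as its reverse complement and the 3 mismatches in capitals.
Gm26880: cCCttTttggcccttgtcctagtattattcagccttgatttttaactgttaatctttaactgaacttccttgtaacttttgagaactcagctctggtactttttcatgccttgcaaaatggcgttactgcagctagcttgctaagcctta
RP24-378G4.3: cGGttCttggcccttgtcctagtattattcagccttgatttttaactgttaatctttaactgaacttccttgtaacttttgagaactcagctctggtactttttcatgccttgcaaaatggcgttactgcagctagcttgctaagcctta
In the E1KD, M1P and L1P libraries both genes were high, and in SCR and Platr18 KD only RP24-378G4.3 was above 1 CPM. How reads were divided between them in either set was not tested. Stretches of at least 100 bases at 98% identity or more were also found in other genes, over 57.5% of the Gm26880 transcript and 28.4% of that of RP24-378G4.3. Of the protein-coding genes with such a stretch, Cnbd2 had 8.90 and 7.79 CPM in E1KD against 4.16 and 4.504 CPM in NMuMG and Cep85 had 24.5 and 19.03 against 19.7 and 19.33 CPM. Neither was called.

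The zinc finger neighbours of Gm26880 were low in the first set. In the second, means reached 7.29 CPM for RP24-320O9.1 in Platr18 KD and 10.4 CPM for RP23-384D6.6 in clone 12. Those of RP23-384D6.1 did not exceed 2.31 CPM. RP24-320O9.1 rose in E1KD by 1.28 (SE 0.0971, adjusted p = 5.9e-08), from 0.885 and 0.811 CPM to 3.58 and 3.38 CPM, and in SCR against EV by 1.05 (SE 0.0971, adjusted p = 7.7e-07), although the latter was 0.996 without EV replicate 2 and 0.971 without SCR replicate 1. RP23-384D6.1 rose in E1KD by 1.11 (SE 0.123, adjusted p = 3.5e-06), from 0.142 and 0.113 CPM to 1.40 and 1.46 CPM. RP23-384D6.6, whose span holds Gm26880 on the other strand, had 0.434 to 2.70 CPM in the first set and was called in none of the 7 comparisons. Genes of such clusters resemble each other, so their values are uncertain to the extent that reads were split among them.

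RP24-286J21.7 (ENSMUSG00000110631.1, chr8:121833247-121841178, plus strand) was high in E1KD and near 1 CPM in the tumor line. Both NMuMG libraries had 214 CPM and those of E1KD 178 and 205 CPM, but M1P had 0.925 and 0.922 CPM and L1P 1.31 and 1.67 CPM. After TGFβ it had 85.3 and 81.8 CPM, a log2 difference of -1.35. The second set had 20.5 to 39.1 CPM, with a log2 difference of 0.42 between SCR and EV (SE 0.0846, adjusted p = 0.0011) that was under the limit.

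Of the 4988 bases in its longest transcript, 95.9% had a copy at 98% identity or more in one of 5 other genes, so the locus its reads came from is uncertain. AC114005.5, a gene model whose span holds the locus, had 23.8 to 59.6 CPM over all libraries and was called nowhere. Klhdc4, a kelch-domain gene at 3.68 kb, had 12.4 and 12.8 CPM in NMuMG and was called nowhere. Slc7a5 at 39.97 kb, the large neutral amino acid transporter, rose in E1KD by 1.58 (SE 0.104, adjusted p = 1.3e-08), from 65.7 and 64.1 CPM to 215 and 179.6 CPM. It fell after TGFβ by 1.83 (SE 0.104, adjusted p = 1.7e-09), to 16.6 and 18.4 CPM. In M1P, where RP24-286J21.7 had under 1 CPM, Slc7a5 had 139 and 136 CPM and was not called.

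Over all 10 lncRNAs, the comparisons outside the 4 lines gave these counts. After TGFβ 5 of 10 were called, where 11.4% of 904 lncRNA genes tested were: RP23-442M18.1, RP24-286J21.7, RP24-67N17.2, Gm26883 and 2010300F17Rik. The TGFβ comparison uses the same NMuMG libraries as that of E1KD, and its count is a description. In SCR against EV 3 of 10 were called, all among the first lncRNAs there, against 3.98% of lncRNA genes. With Platr18 overexpression 0 of 10 were called, against 0.664%, with 3 at an unadjusted p under 0.05 in limma. With Platr18 silencing 0 of 10 were called, against 0.885%, with 2 at an unadjusted p under 0.05, RP23-68M8.2 and 2010300F17Rik. In SCR only RP24-378G4.3, RP24-286J21.7 and RP23-68M8.2 had means of 1 CPM or more. In EV only Ptgs2os2, RP23-442M18.1 and RP24-286J21.7 did. A level under 1 CPM cannot fall by 1 on the log2(CPM + 1) scale, so for the others only a rise could be called. The 10 genes were chosen because they vary, so a share above the background says nothing more about them.

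The log2 differences with hnRNP E1 silencing were set side by side for the 2 sets. They were -2.06 in E1KD against NMuMG and -2.39 in SCR against EV for Ptgs2os2, -2.76 and -2.43 for RP23-442M18.1, 6.81 and 2.86 for RP24-378G4.3 and 1.34 and 0.65 for RP23-68M8.2. They were -2.37 and 0.00 for Gm26883, 7.87 and 0.10 for Gm26880 and -1.28 and -0.04 for RP24-67N17.2, the 3 genes near 0 in the second set that were high in NMuMG or E1KD. For RP24-286J21.7 they were -0.17 and 0.42 (SE 0.0846 for each), both under the limit of 1, and the first is too small beside its SE to give a direction. They were 0.53 and 0.07 for RP23-381B19.2 and 0.37 and 0.05 for 2010300F17Rik, both of them under 1 CPM in all 4 conditions. The set of libraries and the vector or shRNA added to the cells cannot be told apart.

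The protein-coding neighbours were taken by position. Of 29 within 100 kb of a lncRNA, 20 were tested, around 8 of the 10. In E1KD 6 of the 20 were called, 4 higher and 2 lower, against 12.1% of protein-coding genes, and in TGFβ 5, 1 higher and 4 lower, against 16.1%. From E1KD to M1P 2 were called, against 4.64%, and from M1P to L1P 1, against 1.55%. In SCR against EV 4 were called, 2 in each direction, against 8.0%, and with Platr18 overexpression 2, against 1.98%. With Platr18 silencing 0 were called, against 2.02%, with 8 at an unadjusted p under 0.05. The median size of change in E1KD was 0.56 on the log2 scale over the 20 neighbours and 0.39 over all protein-coding genes. A few genes recurred in these counts, Ptgs2 in 5 of the 7 comparisons, Tshz2 in 4 and Hmgcs1 in 3, and Tshz2 and Hmgcs1 overlap their lncRNA. These 2 make up 2 of the 6 called in E1KD, 2 of the 5 after TGFβ and the 1 in L1P against M1P, so those counts came in part with the choice of the lncRNAs and nothing is read from them against the background.

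**Figure D4:**
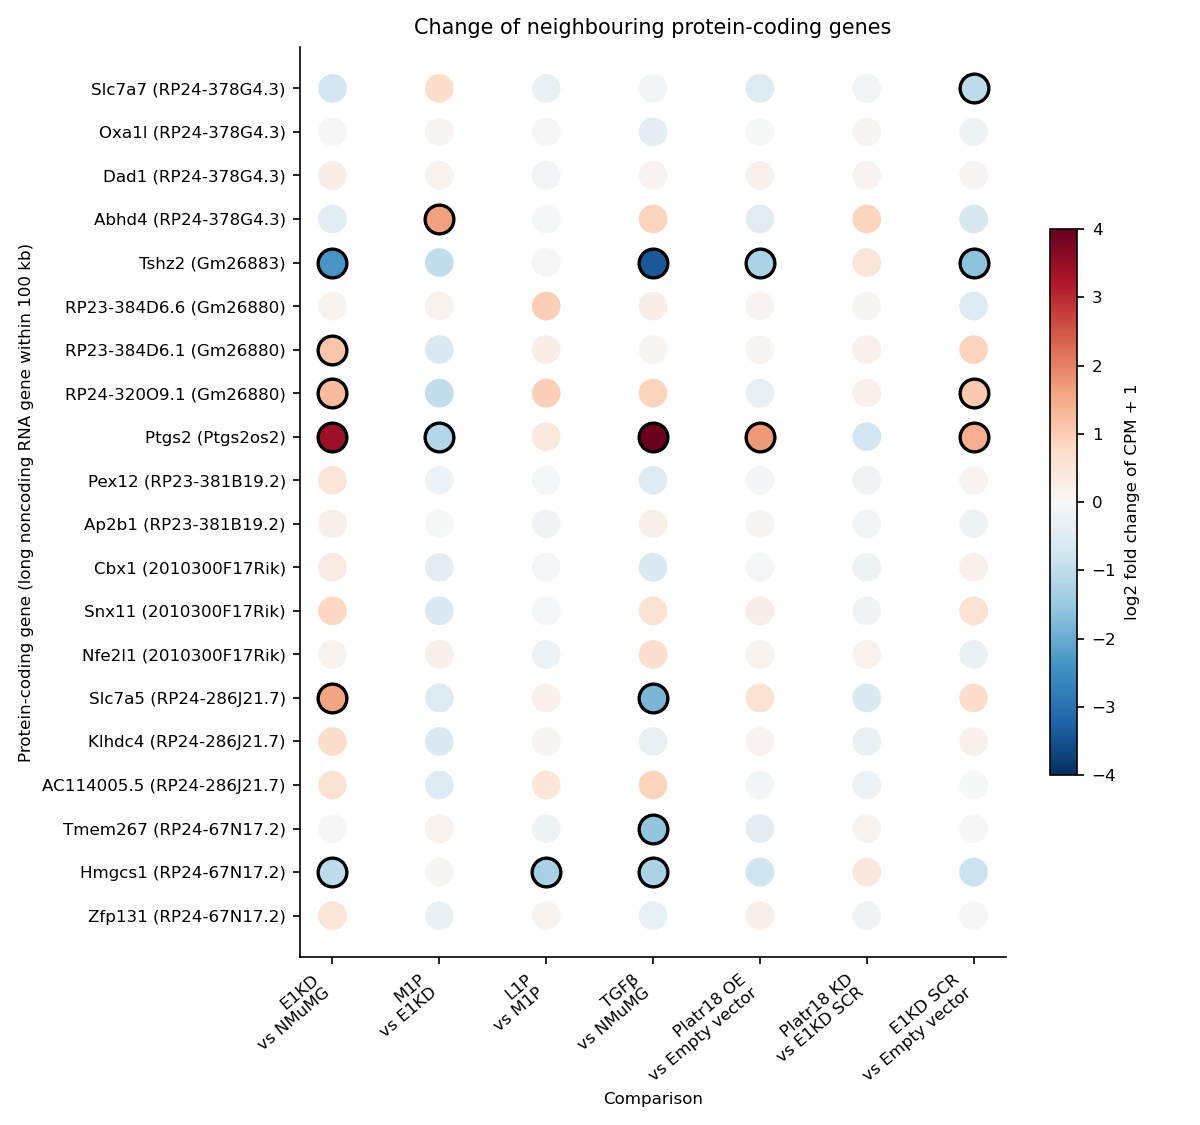
Log2 fold change of CPM + 1 for the 20 tested protein-coding neighbours (rows, with the lncRNA gene in brackets) in 7 comparisons (columns). Colour gives the change, red higher and blue lower in the first named group, and a black ring marks a called gene. Rings gather in the rows of Ptgs2, Tshz2 and Hmgcs1, and Platr18 KD against SCR has none.

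The protein-coding genes whose profile over the 10 libraries of the first set was most like that of each lncRNA were listed by Pearson's r of log2(CPM + 1), leaving out neighbours. The libraries fall into few levels, so r is a description. For RP24-378G4.3 these were Eif4e3, Kctd17 and Mapkapk3 (lowest r 0.999), and for Gm26880 Hexa, Hoxa10 and Mks1 (lowest r 0.998), all at or near 0 CPM in NMuMG and after TGFβ. For Gm26883 they were Ebf1, Ptpru and Lgals4 (lowest r 0.992), and for Ptgs2os2 Ms4a4b, Ccdc149 and Stard9 (lowest r 0.989). For RP23-442M18.1 they included Wbscr27 and Zfp516 (lowest r 0.994).

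For RP23-381B19.2 the nearest profiles were those of Ddo, LT629148.10 and Ltb4r2 (lowest r 0.992), each at its highest in L1P. For 2010300F17Rik they were Fam69a, Spsb1 and Amotl1 (lowest r 0.995), with Spsb1 at a mean of 144 CPM after TGFβ and 4.35 CPM in NMuMG. For RP24-286J21.7 they were Tiam1, Nhsl2 and Zfp422 (lowest r 0.989), with means of at most 0.234 CPM in M1P and L1P. For RP24-67N17.2 they were Lss, Paqr7 and Reep6 (lowest r 0.961), and for RP23-68M8.2 Inip, Cxcl1 and Ugt1a7c (lowest r 0.979).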

How the data were processed

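RNA for 20 libraries of NMuMG-derived mouse cells was extracted with Trizol and read on a HiSeq2500. Alignment by the authors was with Bowtie2 (2.2.5) to the mouse genome (GRCm38.p6), with assignment to GENCODE M18 genes by expectation-maximization in Partek, and they deposited 1 table of CPM with 0.0001 added to every value. The library kit and its use of strand are not given in the sources used here. The offset was removed for printing. Of the low values, the only ones checked, most were whole multiples of that of 1 read (90.1% to 91.4% in the first set, 97.1% to 97.7% in the second). This gave the depth, but the share was too low for whole counts and a count test was left out. A count of 3 reads is worth 0.04998 to 0.0591 CPM in the first set and 0.0204 to 0.0477 CPM in the second, which covers counting error only.

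limma 3.58.1 (lmFit, eBayes with trend; R 4.3.3) was run on log2(CPM + 1) in 1 fit of the 20 libraries with a mean for each of 10 conditions, which left 10 residual degrees of freedom. The 17106 genes that reached 1 CPM in 2 or more libraries were tested, 904 of them of 8 long noncoding types. Calls needed an unadjusted p below 0.001 together with a log2 fold change of 1 or more either way, and p-values were adjusted by Benjamini-Hochberg over all genes tested. Fold changes on this scale understate those of low genes. In simulated data, 133 of 133 genes changed by at least 1.2 were called in E1KD against NMuMG, and 0 of 16906 unchanged ones. The spread between libraries was set in the simulation, so these counts are not error rates for calls in the real libraries.

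The 10 lncRNA genes, the gene lists and the tests were chosen with earlier results of these data known. A lncRNA called in a comparison and among the first 5 called lncRNAs there by p or by size was taken as chosen on it and only described, as were all 10 after TGFβ. Named were the 10 genes, protein-coding genes within 100 kb if nearest or called in 1 of 7 comparisons, the 3 protein-coding genes with the highest r for each (1 of them is not reported here), and called genes of a list of 25 better known lncRNAs. RP23-381B19.3, RP23-68M8.6, Cnbd2 and Cep85 were named after their values were seen. Exon overlaps and copies came from GENCODE M21 with BLAST 2.17.0, promoters and miRNAs from RefSeq (GRCm38.p6). All 10 genes were matched to GENCODE M21 by identifier, 6 under another symbol. Tables used Python 3.11.15, numpy 2.4.6 and pandas 2.3.3, and figures matplotlib 3.10.9.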

Additional observations from a re-analysis of the deposited data

Results flagged for a closer look

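Between the Platr18 clones, 4 of the 30 lncRNAs and tested neighbours differed in their change against EV, as did 750 of all 17106 genes tested. The difference, clone 16 minus clone 12 on the log2 scale, was 3.22 for Ptgs2os2 (SE 0.0521), which lay above EV in both libraries of clone 16 and below it in both of clone 12; this gene was among the first lncRNAs in that comparison, so no p is given. It was -1.47 for RP23-442M18.1 (SE 0.0774, adjusted p = 2.9e-09, limma), -1.72 for RP23-384D6.6 (SE 0.0914, adjusted p = 3.2e-09), which had 10.6 and 10.2 CPM in clone 12, 2.29 and 2.67 CPM in clone 16 and 5.10 and 4.52 CPM in EV, and -1.18 for Tshz2 (SE 0.0726, adjusted p = 1.5e-08).

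The effect of hnRNP E1 silencing on Ptgs2 was larger in the first set of libraries than in the second by 2.00 on the log2 scale (SE 0.172, adjusted p = 1.2e-06), with a rise in 2 of 2 libraries of each set. Of the 20 tested neighbours it was the 1 that differed in this way, against 601 of all 17106 genes.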

How the results depend on the processing

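When the mean CPM had to reach 5, the neighbours called were 3 in E1KD, 1 with Platr18 overexpression and 1 in SCR against EV, and the lncRNAs called were 2 after TGFβ and 1 in SCR against EV, since fewer genes were tested. With pseudocount 0.1, the neighbours were 4 in M1P against E1KD and 3 in L1P against M1P, and 1 lncRNA was called with Platr18 overexpression. Equal sums gave 3 neighbours in L1P against M1P, and median-of-ratios factors gave 1 in M1P against E1KD and 8 after TGFβ. In a fit of the 2 groups compared alone, 0 neighbours were called in M1P against E1KD. A window of 50 kb gave 1, 3, 1 and 2 neighbours in M1P against E1KD, TGFβ, overexpression and SCR against EV, and 250 kb gave 4, 2, 12 and 2 in M1P against E1KD, L1P against M1P, TGFβ and Platr18 KD. Clone 12 alone had 2 lncRNAs called. Except where fewer genes, samples or a changed window show it, the cause was not tested. Leaving out 1 library gave 1 to 3 neighbours in L1P against M1P, 2 without M1P replicate 1 and 3 without L1P replicate 1. The other 131 counts, among them those with an adjusted p under 0.05, without the filter and those blocked by replicate number (6 neighbours in E1KD and 5 lncRNAs after TGFβ, as in the fit without it), stayed within 1.5 times. Libraries that share a number did not deviate together from their group means (correlations -0.125 to 0.127), so no shared effect of the number was seen. Whether such libraries were handled together is not given in the labels.

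Of the fold changes of genes called, 413 values stayed past both limits, 11 fell short and 0 changed direction. Those that fell short were Ptgs2 in M1P against E1KD in 4 settings, Hmgcs1 in E1KD and RP24-320O9.1 in SCR against EV in 2 each, and RP24-67N17.2 in E1KD, Abhd4 in M1P and RP23-384D6.1 in E1KD in 1 each. With 2 libraries a condition, values near that of 3 reads say little about the size of a difference.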

Other observations

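Of the 25 better known lncRNAs, 23 were found in the table and 18 tested. Malat1 and Neat1, abundant nuclear RNAs, fell with hnRNP E1 silencing in both sets: Malat1 by 1.11 in E1KD (SE 0.112, adjusted p = 1.3e-06, limma) and 1.33 in SCR against EV (SE 0.112, adjusted p = 3e-07), and Neat1 by 1.19 (SE 0.0735, adjusted p = 6.4e-09) and 1.12 (SE 0.0735, adjusted p = 1.7e-08). Airn, the antisense RNA of the imprinted Igf2r locus, was listed at 0 in every E1KD, SCR and Platr18 KD library, against means of 5.58 CPM in NMuMG, 6.23 CPM after TGFβ and 2.70 CPM in EV. After TGFβ the microRNA host genes Mir155hg (log2 fold change 1.97, SE 0.115, adjusted p = 2.2e-09) and Mir22hg (1.11, SE 0.0890, adjusted p = 7.7e-08) rose, and Mir17hg (-1.22, SE 0.0752, adjusted p = 3.9e-09) and Dleu2 (-1.38, SE 0.103, adjusted p = 3.4e-08) fell.

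Xist, the RNA that coats the inactive X chromosome, averaged 971 CPM in NMuMG, 805 CPM after TGFβ and 808 CPM in E1KD, but 0.0526 CPM in M1P and 0.0586 CPM in L1P. In the second set its means were 81.9 CPM in EV, 224 CPM in clone 12, 0.118 CPM in clone 16, 264 CPM in SCR and 320.3 CPM in Platr18 KD. The low level in M1P and L1P was shared with RP24-286J21.7, which in clone 16 stayed at 21.9 and 20.5 CPM.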
